A study of Danio rerio with 18 samples.

Results

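The genes described here are 10 zebrafish genes of the vessel lining and its growth factor pathway: the ligand vegfaa, the VEGF receptors flt1, kdr, kdrl and flt4, the Tie receptors tie1 and tek, the adhesion molecules cdh5 and pecam1, and the transcription factor fli1a. They were chosen by symbol, and all 10 were found among the 15268 genes of the deposited expression table. The study resected the ventricular apex of zebrafish hearts and sequenced RNA of the regenerating heart tissue in 2 libraries at each of 3 times, 0, 6 and 9 days after amputation (dpa). The fish were of the TAB line, a hybrid of AB and Tubingen, and the labels name no transgene or drug. The 3 groups therefore share strain and surgery and differ in the day of dissection, and they may also differ in the region of the heart taken. The sources used here do not give the age of the fish, how many hearts were pooled in a library, or whether the 0 dpa tissue was the removed apex or what was left. The replicates are described as biological, and the P values below measure the spread between these libraries only. The chromatin libraries of the hearts, and the samples of the embryonic fibroblast line PAC2, were not analysed here.

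Endothelial cells line every vessel, and in the heart a specialised endothelium, the endocardium, lines the chambers. VEGF-A binds receptor tyrosine kinases on these cells: in mammals VEGFR2 carries most of the growth signal and VEGFR1 acts largely as a trap that limits it, while VEGFR3 serves VEGF-C and the lymphatic endothelium. Zebrafish have a pair of VEGFR2-class genes, kdrl and kdr. The Tie receptors bind or modulate the response to angiopoietins, which steady vessels once formed. Revascularisation of the wound is a known early step of zebrafish heart regeneration, and vegfaa is among its known signals.

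At 6 dpa, 5 of the 10 genes were lower than at 0 dpa: flt1, vegfaa, kdr, tek and pecam1, by 0.66 to 1.67 on the log2 scale, where 7.51% of all genes tested were lower. On leaving out 1 library between 2 and 7 members met the criteria (without 6 dpa replicate 1 these were flt1 as lower and flt4 as higher), and flt1 alone met the criteria after rescaling without haemoglobin, an alternative scaling described below. The largest of these differences was in flt1, followed by vegfaa. At 9 dpa the libraries of flt1 and vegfaa overlapped with those of 0 dpa. Both 9 dpa libraries of kdr, fli1a, tie1 and pecam1 were below both 0 dpa libraries. Of these only kdr met the criteria given below, and its call held under 9 of 15 settings of the fit. The junction gene cdh5, which marks endothelial cells in general, stayed between 39.9 and 51.6 FPKM in all 6 libraries. Other general endothelial markers were not all as steady. At 6 against 0 dpa egfl7 (-1.15 on the log2 scale) and clec14a (-0.80) were lower by the same criteria. The markers fli1a (-0.58), kdrl (-0.57), tie1 (-0.36), erg (-0.35) and cldn5b (0.20) did not meet them. The lymphatic receptor flt4 was the single member whose 6 dpa libraries were above both 0 dpa libraries, a difference that did not meet the criteria given below. It was tested only because its 6 dpa mean, 3.10 FPKM, reached the limit of 3 FPKM, so its direction was in part set by that limit. None of the 10 passed after adjustment for all genes tested in any of the 3 comparisons.

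FPKM, the unit of all levels here, is fragments mapped to a gene, scaled by the length of its transcript and the mapped fragments of the library, so levels can be set side by side between genes. A gene was counted as changed if it met the criteria of the study, a P value under 0.05 (here from limma on log2(FPKM + 1)), a fold change of at least 1.5 on that scale, and a mean of at least 3 FPKM in at least 1 of the groups compared. Every log2 fold change below is a difference of log2(FPKM + 1) and understates the change of genes with low values. The adjusted p-values are Benjamini-Hochberg values from the same fit over all genes tested in the comparison. With 2 libraries against 2, an exact permutation test of a single gene cannot go below 0.333, so none is given.

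The libraries differed in ways that touch these results. The spread between replicates was widest at 0 dpa, where the SD of the log2 difference between the libraries was 0.80, against 0.59 at 6 dpa and 0.47 at 9 dpa. Markers of cardiomyocytes summed to 95588 FPKM in 0 dpa replicate 1 and 49225 in replicate 2, and markers of macrophages and neutrophils to 1032 and 4643 FPKM. Replicate 2 of 6 dpa held the highest sum of skin epithelium markers, 660 FPKM, against 123 to 424 in the other libraries, with cyt1l of that list at 0 in all 6. The epithelial gene epcam was at 60.7 FPKM there and at most at 3.20 elsewhere. Haemoglobin genes summed to between 71028 and 117375 FPKM at 0 and 9 dpa and to 22849 and 21763 at 6 dpa. This drop rests on hbaa1, listed at exactly 0 in both 6 dpa libraries and at 38020 to 86446 FPKM in the others, and on ba1, at 28924 and 16543 FPKM in the 0 dpa libraries and at 0 in all 4 later ones. Both 6 dpa libraries of hbaa2 (7476 and 7889 FPKM) were above those of 0 dpa (5399 and 4291). Summed FPKM also differed without haemoglobin, from 1212740 and 843626 at 0 dpa to 819664 and 781658 at 6 dpa. An alternative that left haemoglobin out and brought every library to the same sum, called rescaling without haemoglobin below, moved the median log2 fold change of all genes from -0.0028 to 0.32 in 6 dpa against 0 dpa. Defining markers of the labelled tissue were high in every library, as the cardiomyocyte sums show.

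In order of mean level over the 6 libraries, the members were fli1a at 73.5 FPKM, cdh5 at 47.2, kdrl at 44.3, tek at 36.6, flt1 at 32.9, tie1 at 29.1, pecam1 at 21.4, kdr at 17.4, vegfaa at 14.9 and flt4 at 2.10. Among all genes of the table these levels ran from percentile 93.0 for fli1a to 73.4 for vegfaa, with flt4 at 37.9. The order changed with time for flt1, whose mean of 46.9 FPKM at 0 dpa was above that of tek (44.2), and whose mean of 14.2 at 6 dpa was below those of tie1 (27.3) and pecam1 (16.8). From cdh5 down to vegfaa, each pair of neighbours in this order overlapped in the range of the 6 libraries. The lowest library of fli1a, at 54.1 FPKM, was above the highest of cdh5, at 51.6, and the highest library of flt4, at 3.53 FPKM, was below the lowest of vegfaa, at 5.69. The sum over the 10 genes was 451 and 345 FPKM at 0 dpa, 242 and 257 by 6 dpa, and 340 and 282 by 9 dpa, with both 6 dpa libraries below the other 4. As a share of the summed FPKM of the library this was 0.0339% and 0.0377% on day 0, 0.0287% and 0.0319% on day 6, and 0.0322% and 0.0294% on day 9, so on that scale the libraries of 6 and 9 dpa overlapped and both 6 dpa libraries were below those of 0 dpa. In tissue RNA of this kind, fewer endothelial cells and less RNA per cell cannot be told apart.

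**Figure D1:**
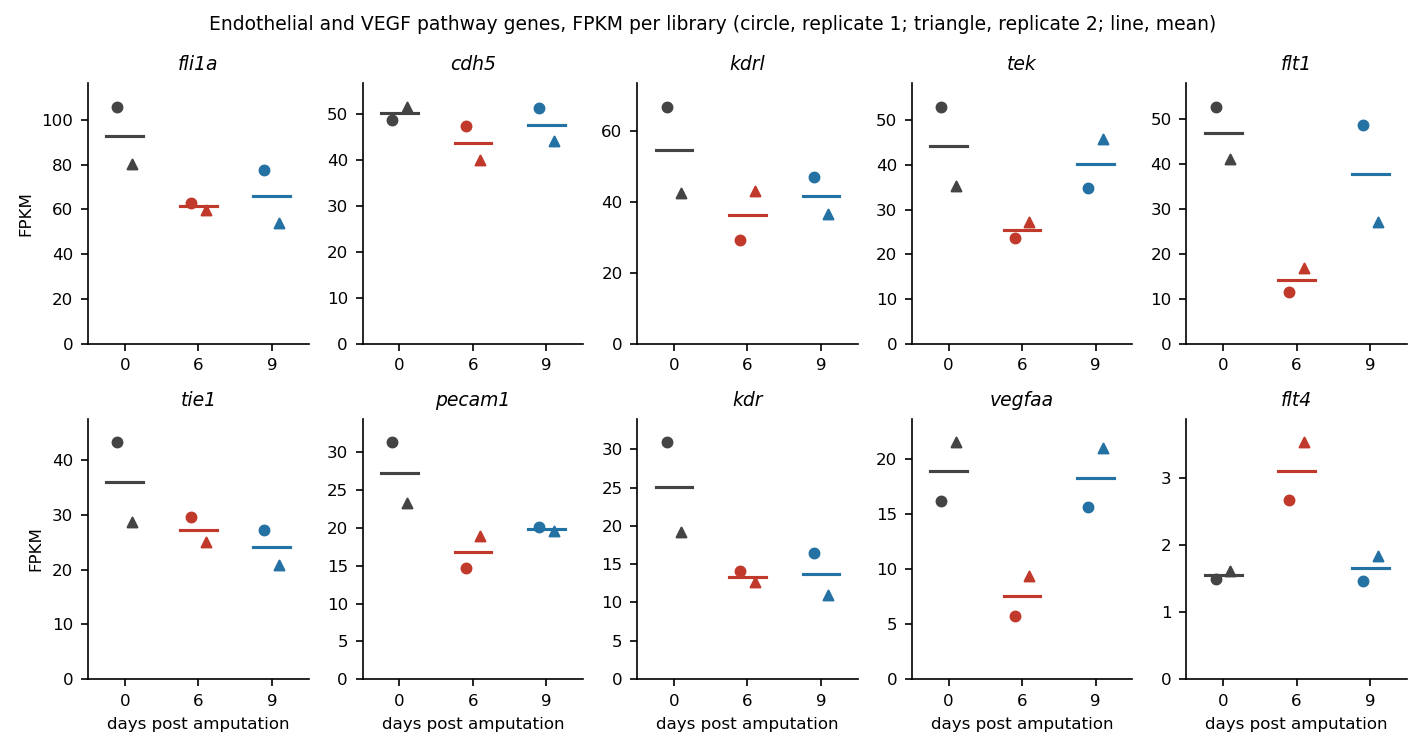
FPKM (y axis, from 0, own scale in each panel) of the 10 genes against days post amputation, with circles for replicate 1, triangles for replicate 2 and lines for the mean of 2 libraries. The 6 dpa libraries of flt1 (11.4 and 16.9) and vegfaa (5.69 and 9.36) sit below all others, those of flt4 (2.67 and 3.53) sit above all others, and cdh5 spans 39.9 to 51.6 throughout.

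The ligand vegfaa, one of the zebrafish VEGF-A genes and mostly made by cells around the vessels, measured 16.2 and 21.5 FPKM in the 0 dpa libraries, 5.69 and 9.36 at 6 dpa, and 15.6 and 21.0 at 9 dpa. The 6 dpa libraries were thus below all 4 others, and the libraries of 0 and 9 dpa overlapped. The gene fell by 1.24 ± 0.31 (SE) on the log2 scale from 0 to 6 dpa, with a P value of 0.00418 and an adjusted p-value of 0.116 in limma. From 6 to 9 dpa it rose by 1.2 ± 0.31, with a P value of 0.00503 and an adjusted p-value of 1.00 (limma). Between 0 and 9 dpa the difference was -0.04, with a 95% confidence interval from -0.76 to 0.67. The call at 6 dpa was lost without 6 dpa replicate 1 (-0.93) and after rescaling without haemoglobin (-0.94), and that at 9 against 6 dpa without 6 dpa replicate 1 (0.88).

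Its paralogue vegfab was more abundant, at a ratio of vegfaa to vegfab between 0.211 and 0.567 in a library, and had the same order of groups, with 57.0 and 41.6 FPKM on day 0, 27.0 and 20.5 on day 6, and 50.5 and 37.0 on day 9. It fell by 1.02 ± 0.31 at 6 dpa (limma adjusted p-value 0.178) and rose by 0.85 ± 0.31 from 6 to 9 dpa, again with no overlap between the libraries. Both calls were lost without 6 dpa replicate 2 (-0.83 and 0.66), and the second also without 9 dpa replicate 1 (0.63). The lymphatic ligands were scarce: vegfc lay between 2.29 and 4.30 FPKM and vegfd between 2.30 and 5.53, and neither met the criteria in any comparison. For vegfd both 9 dpa libraries (2.36 and 2.30) were below the other 4, with a log2 difference of -0.72 from 0 dpa and a limma P value of 0.0766. Its 9 dpa mean, 2.33 FPKM, was below 3 FPKM, so that direction was in part set by the limit on testing.

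Neuropilins are the co-receptors that hold VEGF beside its receptors. Of these, nrp1b measured 13.3 and 10.0 FPKM at 0 dpa, 19.8 and 19.6 by 6 dpa, and 21.9 and 18.0 by 9 dpa. It rose by 0.72 ± 0.25 at 6 dpa and by 0.73 ± 0.25 at 9 dpa against 0 dpa, so its direction was opposite to that of vegfaa at 6 dpa. Without 0 dpa replicate 2 the differences were 0.53 and 0.54 and did not meet the criteria, and each call was also lost without 2 other libraries, 6 dpa replicate 1 and either 6 dpa replicate 2 or 9 dpa replicate 1. Its relative nrp1a was at 10.8 and 11.5 FPKM at 0 dpa and between 12.6 and 15.9 later, and nrp2b between 5.48 and 7.84 FPKM, and neither met the criteria. The mean of nrp2a was below 3 FPKM at each time, with 1.43 to 3.58 FPKM over the libraries, and it was not tested. The other ligand genes listed, vegfba, vegfbb, pgfa and pgfb, were not matched by symbol.

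**Figure D2:**
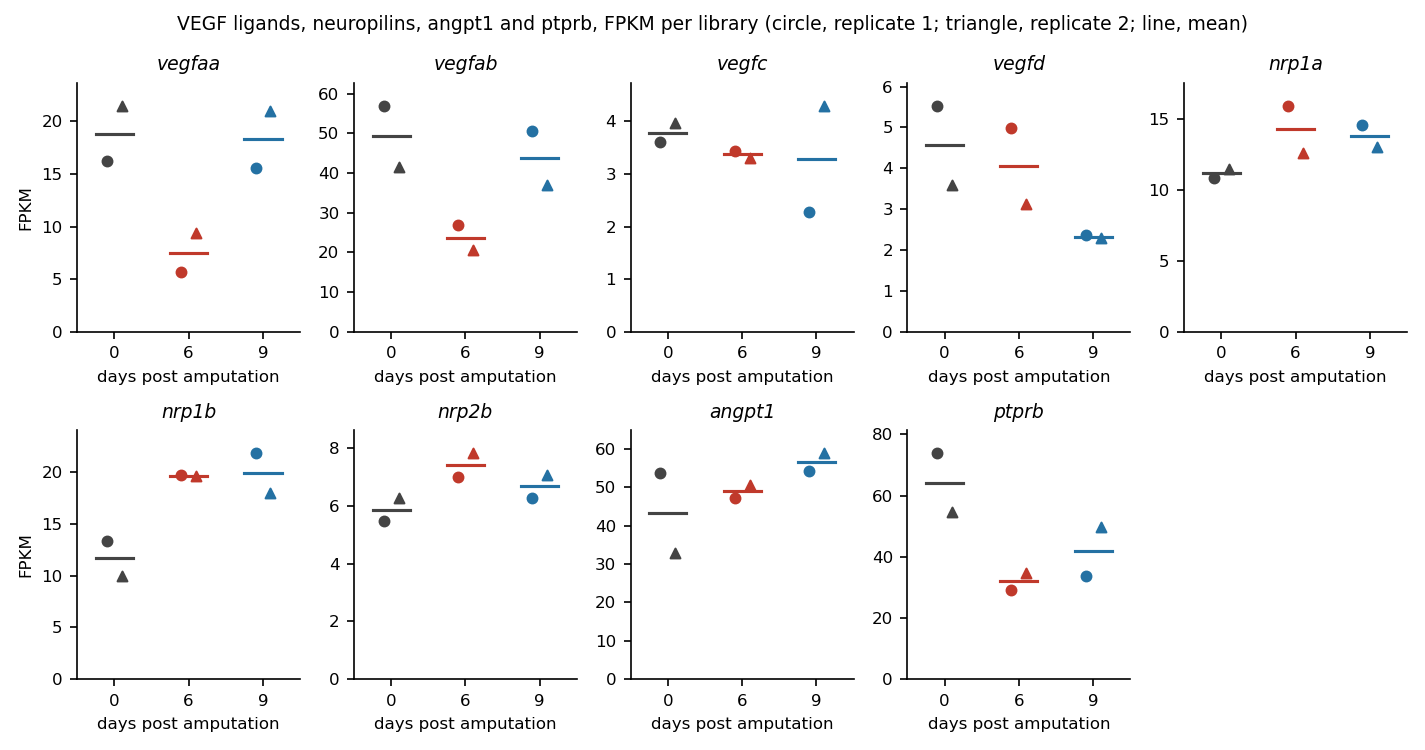
FPKM (y axis, from 0, own scale in each panel) of VEGF ligands, neuropilins, angpt1 and ptprb against days post amputation, with circles for replicate 1, triangles for replicate 2 and lines for the mean of 2 libraries. Both 6 dpa libraries of each VEGF-A gene are below all others. For ptprb only the mean is lowest at 6 dpa, and its libraries of 6 and 9 dpa overlap. The gene nrp1b is higher at 6 and 9 dpa (18.0 to 21.9) than at 0 dpa (10.0 and 13.3).

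Among the receptors, flt1 (VEGFR1) moved most, with 52.7 and 41.1 FPKM in the 0 dpa libraries, 11.4 and 16.9 at 6 dpa, and 48.5 and 26.9 at 9 dpa. The higher 6 dpa library lay below the lowest of the other 4. At 6 dpa it was 3.19-fold lower than at 0 dpa on the scale of the fit, a log2 fold change of -1.67 ± 0.36 with a 95% confidence interval from -2.51 to -0.84. The P value was 0.00181 and the limma adjusted p-value 0.0864. This call held under all 15 settings of the fit, leaving out any 1 library and rescaling without haemoglobin included, with log2 fold changes from -1.94 to -1.35 and adjusted p-values from 0.0667 to 0.390. From 6 to 9 dpa flt1 rose by 1.32 ± 0.36, with a P value of 0.00672 and a limma adjusted p-value of 1.00. That second call was lost without 6 dpa replicate 1 (1.05) or 9 dpa replicate 1 (0.91). The 9 dpa libraries were far apart, and 1 of them lay inside and 1 below the range at 0 dpa.

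Of the VEGFR2-class genes, kdr came lower in level than kdrl. For kdr the values were 30.9 and 19.2 FPKM on day 0, 14.1 and 12.6 on day 6, and 16.5 and 10.9 on day 9. Both later groups lay below both 0 dpa libraries and overlapped with each other. The fall was 0.83 ± 0.32 on the log2 scale at 6 dpa (limma adjusted p-value 0.271) and 0.82 ± 0.32 at 9 dpa (0.341), with 0.01 between 6 and 9 dpa. Since both comparisons use the same 0 dpa libraries, the agreement of these values is not an independent result. Without 0 dpa replicate 1, the higher of the pair, the differences were -0.50 and -0.49, and neither met the criteria. The call at 6 dpa held under 10 of the 15 settings and that at 9 dpa under 9. Among others, the first was also lost without either 6 dpa library (-0.90 and -0.75) and after rescaling without haemoglobin (-0.50). The second was also lost without 9 dpa replicate 2 (-0.54) or either 6 dpa library, among others.

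For kdrl, the gene commonly used to label zebrafish endothelium, the values were 67.0 and 42.6 FPKM at 0 dpa, 29.3 and 43.2 by 6 dpa, and 47.0 and 36.6 by 9 dpa. The libraries of all 3 times overlapped. No comparison met the criteria, and the log2 fold change at 6 dpa was -0.57, with a 95% confidence interval from -1.37 to 0.22. It met them without 0 dpa replicate 2 (-0.89). The interval includes the log2 fold change of kdr, -0.83.

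The lymphatic receptor flt4 (VEGFR3) was near the limit of what was tested, with 1.49 and 1.61 FPKM in the 0 dpa libraries, 2.67 and 3.53 at 6 dpa, and 1.47 and 1.84 at 9 dpa. It entered the fit only through its 6 dpa mean of 3.10 FPKM, the group in which it was highest, so its direction at 6 dpa was in part set by the filter. The log2 fold change was 0.68 ± 0.41 at 6 dpa and -0.62 ± 0.41 from 6 to 9 dpa, neither of which met the criteria. It met them at 6 dpa without 6 dpa replicate 1 (0.83), without the FPKM filter and without the expression trend. The difference between 9 and 0 dpa was not tested, since both means were under 3 FPKM.

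Ratios within a library do not depend on its total. These were chosen after the values were seen and are given as a description. The ratio of flt1 to kdrl was 0.787 and 0.964 on day 0, 0.390 and 0.391 on day 6, and 1.03 and 0.736 on day 9. Against cdh5, flt1 was at 1.08 and 0.795, then 0.241 and 0.424, then 0.946 and 0.611. In each of these ratios the 6 dpa libraries were below all others, so flt1 was low at 6 dpa relative to kdrl and cdh5 too. The ratio of flt4 to kdrl went the other way, with 0.0223 and 0.0378 at 0 dpa, 0.0913 and 0.0817 by 6 dpa, and 0.0312 and 0.0503 by 9 dpa. That direction was in part set by the filter, which flt4 passed only through its 6 dpa mean, and the mean of kdrl was lowest at 6 dpa. For kdr to cdh5 the ratio was 0.634 and 0.373 at 0 dpa and 0.248 to 0.321 later. The ratio of kdr to kdrl overlapped between 0 and 6 dpa, with 0.462 and 0.452 against 0.483 and 0.292. At 9 dpa it was 0.350 and 0.299, below both 0 dpa libraries.

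**Figure D3:**
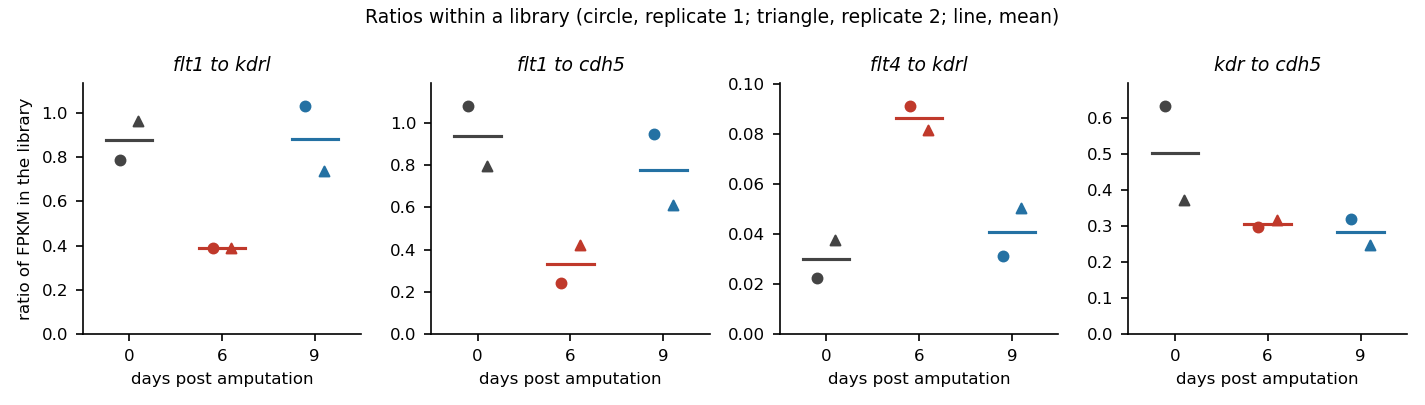
Ratio of the FPKM of 2 genes within each library (y axis, from 0) against days post amputation, with circles for replicate 1, triangles for replicate 2 and lines for the mean of 2 libraries. The ratio of flt1 to kdrl is 0.390 and 0.391 at 6 dpa and at least 0.736 in the other libraries. The ratio of flt4 to kdrl is highest at 6 dpa, the only time at which the mean of flt4 passed the filter.

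Of the Tie receptors, tek (Tie2), which binds the angiopoietins in mammals, measured 53.1 and 35.3 FPKM in the 0 dpa libraries, 23.7 and 27.2 at 6 dpa, and 34.7 and 45.9 at 9 dpa. The 6 dpa libraries were the lowest, and those of 0 and 9 dpa overlapped. It fell by 0.75 ± 0.31 at 6 dpa, with a P value of 0.0422 and a limma adjusted p-value of 0.302, and the call held under 7 of the 15 settings. It was lost without any library other than 0 dpa replicate 2, with -0.46 without 0 dpa replicate 1, and after rescaling without haemoglobin (-0.42). The log2 difference from 6 to 9 dpa was 0.63, with a P value of 0.0745. Its relative tie1, whose product pairs with Tie2 in mammals, was at 43.3 and 28.8 FPKM on day 0, 29.6 and 25.1 on day 6, and 27.3 and 20.8 on day 9. No comparison of tie1 met the criteria, with log2 differences of -0.36 at 6 dpa and -0.55 at 9 dpa against 0 dpa. Both 9 dpa libraries lay below both 0 dpa libraries, and without 0 dpa replicate 2 the difference of -0.83 met them.

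The angiopoietin angpt1, an agonist of Tie2 in mammals, was at 53.8 and 33.0 FPKM at 0 dpa, 47.2 and 50.7 by 6 dpa, and 54.3 and 59.0 by 9 dpa, and did not meet the criteria. The means of angpt2a and angpt2b were below 3 FPKM at each time and were not tested. The values of angpt2b were 0.413 and 0.181 FPKM in the 0 dpa libraries, 3.13 and 1.44 at 6 dpa, and 0.767 and 1.84 at 9 dpa. The phosphatase gene ptprb, whose product acts on Tie2 and VEGFR2 in mammals, measured 73.9 and 54.5 FPKM on day 0, 29.1 and 34.7 on day 6, and 33.8 and 49.9 on day 9. It fell by 0.98 ± 0.31 at 6 dpa (limma adjusted p-value 0.200), and its difference of -0.61 at 9 dpa did not meet the criteria. The call at 6 dpa was lost without 0 dpa replicate 1 (-0.76) or 6 dpa replicate 1 (-0.85) and after rescaling without haemoglobin (-0.64). The genes angpt4 and svep1 were not matched by symbol.

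The adherens junction gene cdh5 (VE-cadherin) was at 48.8 and 51.6 FPKM at 0 dpa, 47.4 and 39.9 by 6 dpa, and 51.3 and 44.1 by 9 dpa. Both 6 dpa libraries were below both 0 dpa libraries. The log2 fold change of cdh5 was -0.20 at 6 dpa, with a 95% confidence interval from -0.82 to 0.42, and -0.08 at 9 dpa, from -0.69 to 0.54. These intervals include a fall of 1.5-fold, so with 2 libraries per group a fall of cdh5 of that size is not excluded. The values of pecam1, an adhesion molecule of endothelial cells and platelets in mammals, were 31.3 and 23.3 FPKM in the 0 dpa libraries, 14.7 and 19.0 at 6 dpa, and 20.2 and 19.6 at 9 dpa. It fell by 0.66 ± 0.27 at 6 dpa, with a P value of 0.0404 and a limma adjusted p-value of 0.297, and this call held under 8 of the 15 settings. As with tek, it was lost without any library other than 0 dpa replicate 2, with -0.46 without 0 dpa replicate 1 and -0.49 without 6 dpa replicate 1, and after rescaling without haemoglobin (-0.34). The fall of pecam1 lies within the interval of cdh5. At 9 dpa both libraries of pecam1 were below both 0 dpa libraries, with a log2 difference of -0.42 that did not meet the criteria.

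The transcription factor fli1a, an ETS factor of endothelial and blood progenitors, was the most abundant of the 10, with 106 and 80.1 FPKM on day 0, 63.1 and 59.9 on day 6, and 77.6 and 54.1 on day 9. Both later groups lay below both 0 dpa libraries. Its log2 differences from 0 dpa were -0.58 at 6 dpa (P value 0.101) and -0.50 at 9 dpa (P value 0.144), and neither met the criteria. At 6 dpa they were met without 0 dpa replicate 2 (-0.78) and with median-ratio scaling (-0.61).

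Counted over the list at 6 dpa against 0 dpa, 5 of 10 members were lower and 0 higher, where 7.51% of the 9275 genes tested were lower and 7.86% higher. In 7 members both 6 dpa libraries were below both 0 dpa libraries, which was so for 22.8% of all genes. The median log2 fold change of the members was -0.62, against -0.0028 for all genes. Leaving out 0 dpa replicate 1 left 2 members lower (flt1 and vegfaa), leaving out 0 dpa replicate 2 gave 7, and without the 6 dpa library that held the skin genes 2 remained (flt1 and vegfaa). Without 6 dpa replicate 1, flt1 was lower and flt4 higher, and without either 9 dpa library 3 members were lower (flt1, kdr and vegfaa). After rescaling without haemoglobin, flt1 alone met the criteria, and with each gene taken relative to the median of all genes the difference of flt1 was -1.67 before and -1.66 after, that of vegfaa -1.24 and -1.25, and that of kdr -0.82 and -0.82. The rescaled fit also turned the log2 fold change of cdh5 to 0.13. The adjusted p-values of the members ran from 0.0864 to 0.754, and 66 of all genes passed on that measure.

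At 9 dpa against 0 dpa, 1 of 9 members tested (kdr) was lower and 0 higher, with 5.72% of 9015 genes lower and 6.82% higher. This share is near the background. The median was -0.36 for the members and -0.03 for all genes. At 9 dpa against 6 dpa, 2 of 10 members (flt1 and vegfaa) were higher and 0 lower, with 1.99% of 9157 genes higher and 1.42% lower. The medians were 0.17 and -0.01. All 10 members had an adjusted p-value of 1.00 (limma) in this comparison, in which 3 of all genes passed. This comparison shares its 6 dpa libraries with the first comparison, so a low value at 6 dpa enters both.

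**Figure D4:**
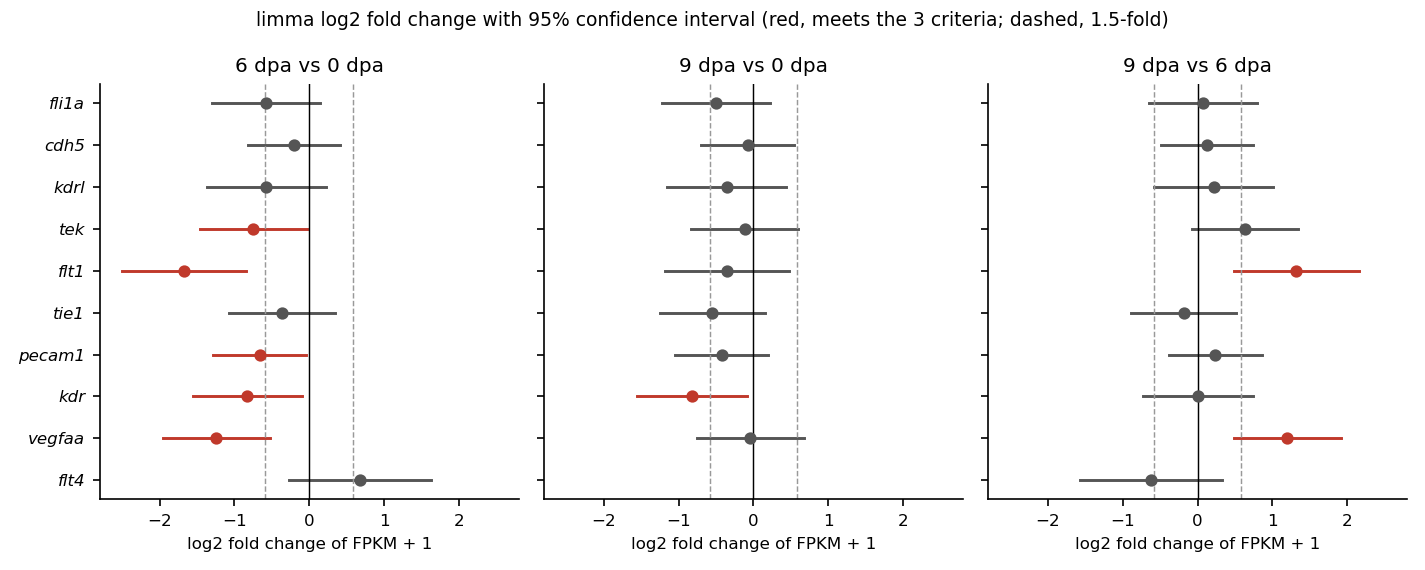
Log2 fold change of FPKM + 1 (x axis) with its 95% confidence interval from limma for the 10 genes in the 3 comparisons. Red points meet the 3 criteria, dashed lines mark 1.5-fold, and flt4 was not tested at 9 against 0 dpa. The red points are 5 at 6 against 0 dpa, all to the left of 0, kdr at 9 against 0 dpa, and flt1 and vegfaa to the right of 0 at 9 against 6 dpa.

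Over the 6 libraries, 35 of the 45 pairs of members had a Pearson r above 0 on log2(FPKM + 1), with a median of 0.58. The highest was 0.99 for kdr and fli1a, and the lowest was -0.87 for flt1 and flt4. These points share libraries and totals, so they describe the 6 libraries only. Among all genes fitted, those most like kdrl were fam173b (r = 0.99), cdkn2aipnl, sema4c, mgst3a and spred1, and 1.62% of genes had an r above 0.9 with it. Those most like vegfaa were klf9 (0.97), nup43, pip5k1ba, grasp and ddx54, and 0.545% of genes had an r above 0.9. The values of klf9, a Kruppel-like factor gene, were 55.4 and 52.0 FPKM at 0 dpa, 6.44 and 12.8 by 6 dpa, and 46.5 and 60.2 by 9 dpa, with the same order of groups as vegfaa and a wider range.

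A list of 64 other endothelial genes, of which 43 were tested at 6 dpa, was split in direction. At 6 dpa 6 were higher and 7 lower than at 0 dpa, where 7.86% of all genes tested were higher and 7.51% lower. The median log2 fold change was -0.12. The gene ramp2, a partner of the adrenomedullin receptor, fell by 1.98 ± 0.35, from 350 and 271 FPKM to 102 and 58.7, and was still 1.53 lower on the log2 scale at 9 dpa (99.0 and 113 FPKM). The genes plvapa, for the diaphragm protein of fenestrated endothelium, and egfl7, for a secreted endothelial protein, fell by 1.17 and 1.15 at 6 dpa. The paralogue plvapb did not fall with plvapa. It went from 23.2 and 11.9 FPKM at 0 dpa to 30.8 and 26.1 at 6 dpa, a log2 difference of 0.73 that did not meet the criteria. While egfl7 rose again from 6 to 9 dpa by 0.71, plvapa remained 0.85 below 0 dpa. In the other direction, the apelin receptor gene aplnrb rose by 2.01 ± 0.49 at 6 dpa, from 31.0 and 9.55 FPKM to 83.4 and 64.3, and tmem88a by 1.41. Both were also higher at 9 dpa, by 1.21 and 1.28. The scavenger receptor gene stab2 was lower at 9 dpa by 1.23, from 4.44 and 4.01 FPKM at 0 dpa to 1.49 and 0.987. It was tested only through its 0 dpa mean, 4.23 FPKM, so its direction was in part set by the limit of 3 FPKM. The calls of ramp2 and of egfl7 and aplnrb at 6 dpa held under all 15 settings. Without 0 dpa replicate 2, which had the lower values of both, the differences of aplnrb were 1.21 at 6 dpa and 0.41 at 9 dpa and those of tmem88a 0.78 and 0.65, and of these 4 only the first met the criteria. The other calls named here were lost without 1 or more libraries, that of plvapa at 6 dpa without replicate 1 (-0.82).

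Relative to the median level of these 43 genes in the same library, 9 of 10 members were lower at 6 dpa than at 0 dpa with no overlap, as were 52.0% of all genes tested. The reference median itself went from 4.60 and 4.19 to 4.82 and 4.76 on the log2 scale, opposite in sign to the list's median fold change of -0.12, since a median level and a median difference are taken over different gene orders. With cdh5 as the reference instead, 4 of the other 9 members were lower (kdr, flt1, vegfaa and fli1a), where 12.2% of all genes were lower. The 1 higher was flt4, which passed the filter only through its 6 dpa mean.

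Among endocardial genes, 2 of 10 tested were lower at 6 dpa and 0 higher, with a median of -0.31. Over all genes tested, 7.51% were lower and 7.86% higher, so counts this small say little about the list. The flow-responsive factor gene klf2b fell from 56.9 and 35.5 FPKM to 15.4 and 16.9 at 6 dpa and was at 14.8 and 11.4 at 9 dpa, which are log2 differences of -1.42 ± 0.30 and -1.71 ± 0.30. The gene heg1, for a receptor at endothelial junctions needed for heart growth in zebrafish, measured 105 and 69.0 FPKM in the 0 dpa libraries, 24.5 and 26.9 at 6 dpa, and 40.7 and 47.8 at 9 dpa. It fell by 1.69 ± 0.30 at 6 dpa (limma adjusted p-value 0.0627) and rose by 0.76 from 6 to 9 dpa, staying 0.93 below 0 dpa. The calls of klf2b, and of heg1 at 6 dpa, held under all 15 settings, while those of heg1 at 9 dpa were lost without several libraries, with -0.63 against 0 dpa without 0 dpa replicate 1. The cadherin gene cdh11 was higher at 9 dpa by 1.23, from 1.60 and 1.43 FPKM at 0 dpa to 6.18 and 3.83. Its 0 dpa mean was 1.52 FPKM, so it was tested there only through its 9 dpa mean of 5.00. The direction of cdh11 was thus in part set by the limit of 3 FPKM. Of the lymphatic list, 0 of 7 genes tested changed at 6 dpa, and lyve1a fell at 9 dpa by 1.64 against 0 dpa. Its 6 dpa libraries were at 4.06 and 15.96 FPKM, so its fall of 1.26 from 6 to 9 dpa rests on the higher one and is 0.39 without it. The 9 dpa mean of lyve1a, 2.88 FPKM, was below 3 FPKM, so the direction of both falls was in part set by that limit. Pericyte and smooth muscle genes gave 1 higher of 8 at 6 dpa, pdgfrb (by 0.81), and 1 lower at 9 dpa, foxc1b (by 0.78). Counts of 1 are near the background, 7.86% higher at 6 dpa and 5.72% lower at 9 dpa. The calls of cdh11, lyve1a, pdgfrb and foxc1b were each lost without 1 or more libraries, with 0.57 for pdgfrb without 6 dpa replicate 1 and -0.43 for foxc1b without 9 dpa replicate 2.

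Downstream of the receptors, 23 signalling genes were tested. At 6 dpa 1 was lower, kras, by 0.70, and 0 were higher, a share near the background. At 9 dpa kras was lower by 0.79 and ptk2ab, a focal adhesion kinase gene, higher by 0.79. These shares were also near the background, 5.72% lower and 6.82% higher. The median of the list was 0.05 at 6 dpa and -0.07 at 9 dpa. Each of these calls was lost without 2 or more libraries, and that of kras at 6 dpa after rescaling without haemoglobin (-0.40).

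Hypoxia-inducible factors are a known driver of VEGF-A transcription, but a part of this pathway in the fall of vegfaa was not tested. Of 22 genes of the pathway tested, 6 were lower and 1 higher at 6 dpa, with a median of -0.44. Over all genes tested, 7.51% were lower and 7.86% higher. In sign, 16 of the 22 were below 0 and 6 above, with adma at 0.56 and ndrg1a at 0.45, neither of them called at 6 dpa. The genes named below were picked for the largest called changes, which left out vhl (-1.17 at 6 dpa). The gene ankrd37 passed with an adjusted p-value of 0.0351 (limma), with 10.0 and 14.7 FPKM on day 0, 2.77 and 1.93 on day 6, and 4.94 and 4.51 on day 9. The secreted binding protein gene igfbp1a fell by 3.07 ± 0.80 at 6 dpa, the prolyl hydroxylase gene egln3 by 1.96 ± 0.53, the HIF alpha subunit-like gene hif1al by 1.94 ± 0.35 and the stress gene ddit4 by 1.58 ± 0.56. Of these, hif1al belongs to the family of the factors themselves, and egln3 encodes an enzyme that restrains them. The mitophagy gene bnip3 went the other way, rising by 1.72 ± 0.51 at 6 dpa and 1.75 ± 0.51 at 9 dpa. From 6 to 9 dpa 3 genes rose (ddit4 by 1.80, egln3 by 1.43 and ankrd37 by 0.78) and 0 fell, with a median of 0.38. Over all genes tested in that comparison, 1.99% were higher and 1.42% lower. The calls of ankrd37, egln3 and hif1al at 6 dpa held under all 15 settings. The 6 dpa libraries of ddit4 were at 9.39 and 33.9 FPKM, and without the first its differences were -0.70 from 0 dpa and 0.93 to 9 dpa, neither of which met the criteria. For igfbp1a the call was lost without the same library (-2.21). The rise of ankrd37 from 6 to 9 dpa held under 11 of the 15 settings and was 0.60 without 6 dpa replicate 2. Its 6 dpa mean, 2.35 FPKM, was below 3 FPKM. In both comparisons with 6 dpa the direction of ankrd37 was thus in part set by that limit. For egln3 the rise from 6 to 9 dpa fell short of the criteria without 9 dpa replicate 1 (0.67) or 6 dpa replicate 2 (0.89). Without 0 dpa replicate 2 the rises of bnip3 were 0.91 and 0.95.

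**Figure D5:**
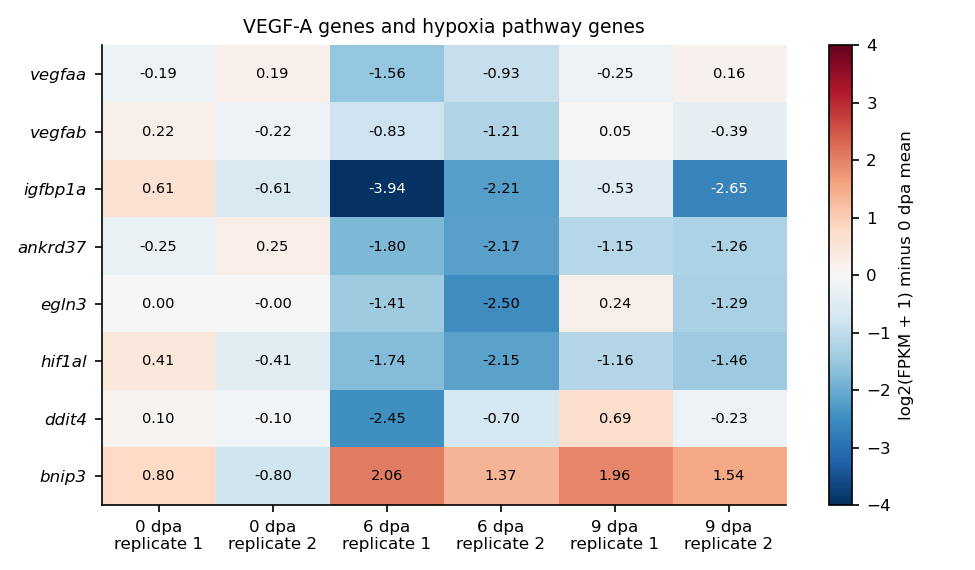
Log2(FPKM + 1) minus the mean of the 0 dpa libraries (colour and printed number) for vegfaa, vegfab and 6 hypoxia pathway genes (rows) in the 6 libraries (columns). The 6 pathway genes were picked from 22 tested for the largest called changes, so they do not stand for the whole list. Both VEGF-A genes and 5 of the pathway genes are below 0 in both 6 dpa libraries, and bnip3 is above 0 there (2.06 and 1.37).

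Summed levels of markers of other cell types were as follows, with counts to be read beside the 7.86% of all genes higher and 7.51% lower at 6 dpa. Cardiomyocyte markers summed to 95588 and 49225 FPKM at 0 dpa, 48801 and 40653 by 6 dpa, and 69340 and 51354 by 9 dpa, with 10 of 10 markers below 0 at 6 dpa, 2 of them called, and a median of -0.66, close to that of the members. Epicardial markers summed to 576 and 652 FPKM at 0 dpa and 1344 to 2708 later, and 9 of 11 rose at 6 dpa. Matrix genes on this list weigh most in the sum, with fn1b, col1a2 and col1a1a at 779, 509 and 500 FPKM in 6 dpa replicate 1. In that library tcf21, tbx18 and wt1a, which also rose, were at 68.6, 37.0 and 13.0 FPKM. At 6 dpa wt1b (1.27 on the log2 scale) and aldh1a2 (-0.13) did not meet the criteria. Markers of red cells and thrombocytes other than haemoglobin summed to 1105 and 600 FPKM at 0 dpa and 1602 to 2703 later, and 9 of 11 rose at 6 dpa. For macrophages and neutrophils 1 of 16 tested rose at 6 dpa, and the sums were 2859 and 2712 FPKM at 6 dpa and 1509 and 1686 at 9 dpa. Liver markers summed to 510 and 243 FPKM at 6 dpa, against 44.6 and 118 at 0 dpa. At 9 dpa they summed to 70.6 and 268 FPKM, which overlaps with 6 dpa. Most of these markers were near 0 apart from tfa, and fgg was at 0 in all libraries. In 6 dpa replicate 2, the library that held the skin genes, fabp10a was at 37.7 FPKM and apoa2 at 11.3. Skeletal muscle markers summed to 1630 to 3771 FPKM with overlap of the groups, although 5 of 7 tested rose at 6 dpa. The part of these differences in the lower levels of the endothelial genes at 6 dpa was not tested.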

How the data were processed

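RNA of zebrafish heart tissue was measured in 6 libraries. Reads had been mapped with STAR on the genome build danRer10, and the authors deposited FPKM values made with Cufflinks (the labels list Cuffdiff). Versions, annotation and use of strand in counting are not given in the sources used here. The table holds no counts, so the depth behind a value is unknown, no count model was used and precision comes from 2 replicates only. The values were used as deposited.

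The members and gene lists were chosen with earlier results of these data known. Log2(FPKM + 1) values were fitted with limma 3.58.1 (R 4.3.3), with time as the only term, a trend over expression and 3 residual degrees of freedom, for 9363 genes with a mean of at least 3 FPKM at 1 or more times. The 3 criteria are those of the study, but its count-based test needs counts, so the P value came from limma. The procedure was tested on simulated data. Genes named are the members, the genes of the VEGF ligand, co-receptor and angiopoietin lists found in the table, up to 6 called genes with the largest change in each other pathway list, and the 5 genes most like kdrl and vegfaa. Marker genes, ratios and the paralogues plvapb and klf2a are named as a description. Alternatives were a pseudocount of 0.1, no filter, a mean of at least 1 FPKM, median-ratio scaling, rescaling to equal totals without haemoglobin, compared groups only, a replicate block, no trend, and leaving out each library, where the lone library is assumed to vary like the others. These were applied to the called genes of the other lists after their values were seen.

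All 10 symbols matched RefSeq names of GRCz12tu, 8 as current symbols and 2 as synonyms (fli1a is now fli1, pecam1 is now pecam1a). There tie1 overlaps an antisense RNA, kdr a coding gene, and cdh5 and vegfaa a lncRNA each, whose reads may not be separable. No sequences or coordinates were used here. Figures were made with Python 3.11.15 and matplotlib 3.10.9.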

Additional observations from a re-analysis of the deposited data

How the results depend on the processing

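In 6 against 0 dpa the 5 members called became 1 (flt1) after rescaling without haemoglobin, 3 (flt1, kdr and vegfaa) in a fit of the compared groups only, 0 by adjusted p-value and 2 to 7 on leaving out a library. That count was 2 without either 6 dpa library or 0 dpa replicate 1, 3 without either 9 dpa library and 7 without 0 dpa replicate 2. In 9 against 0 dpa the 1 member called (kdr) became 0 without the filter, in the compared groups only and by adjusted p-value, and 0 to 2 on leaving out a library, with 2 (kdr and tie1) without 0 dpa replicate 2, 1 without 9 dpa replicate 1 and 0 without any other. In 9 against 6 dpa the 2 members called became 0 by adjusted p-value and 1 to 3 on leaving out a library, with 1 without 6 dpa replicate 1 (flt4, as lower) or 9 dpa replicate 1 (vegfaa). With cdh5 as the reference, 4 of 9 members were lower at 6 dpa with no overlap, where 12.2% of all genes were. With the median of the other endothelial genes, 9 of 10 members were lower, where 52.0% of all genes were. Rescaling without haemoglobin reversed members that were not called: cdh5 at 0.13 (6 against 0 dpa), cdh5 at 0.076, tek at 0.038 and vegfaa at 0.10 (9 against 0 dpa), and kdr at -0.16, cdh5 at -0.052 and fli1a at -0.11 (9 against 6 dpa). Leaving out a library in turn gave ranges that cross 0 for members not called: at 9 against 0 dpa -0.77 to 0.060 for flt1, -0.18 to 0.032 for cdh5, -0.40 to 0.17 for tek and -0.25 to 0.16 for vegfaa, and at 9 against 6 dpa -0.058 to 0.49 for kdrl, -0.26 to 0.28 for kdr, -0.37 to 0.0029 for tie1 and -0.18 to 0.33 for fli1a.

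With a replicate block the members called were 5, 1 and 2 in the 3 comparisons, as without it, and 1527, 1214 and 353 of all genes met the criteria, against 1426, 1131 and 312. The numbers were not treated as pairs, since the deviations of same-numbered libraries correlated at -0.085, 0.090 and 0.0052. Adjusted calls over all genes fell from 66, 33 and 3 to 12, 5 and 2 with the block. Of all genes called, 729 were higher and 697 lower at 6 against 0 dpa, 615 and 516 at 9 against 0 dpa, and 182 and 130 at 9 against 6 dpa. Rescaling without haemoglobin made these 1750 and 343, 964 and 358, and 96 and 265, and moved the median of all genes to 0.32, 0.12 and -0.18, while median-ratio scaling gave 282 and 98 in the last. Of 232 results of members under the other settings 209 kept direction and side of the criteria, and of 172 with a library left out 133 did. The cause of these changes was not tested.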
